A study of Mus musculus with 6 samples.

Results

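The leukocyte beta 2 integrins are described here through the 5 mouse genes that encode their subunits: Itgb2, the shared beta chain CD18, and the alpha chains Itgal (CD11a), Itgam (CD11b), Itgax (CD11c) and Itgad (CD11d). The genes were chosen by symbol and not by their values. All 5 have a row among the 24054 genes of the deposited tables. The libraries were made from bone marrow-derived macrophages, which are marrow precursors driven to become macrophages in culture. L929-conditioned medium, a source of macrophage colony-stimulating factor, was used for 7 days. There were 2 libraries of Kindlin3-integrin mutant cells given oxidised low-density lipoprotein (oxLDL, 50 µg/ml for 24 hours), 2 of untreated mutant cells, 1 of wild-type cells given oxLDL and 1 of untreated wild-type cells. Both genotypes are on a C57BL/6 background. The labels describe no other allele, do not say which residues or which integrin the mutation concerns, and give no age for the mice. No label says that replicates are different mice or cultures, so every p-value here reflects variation among libraries that may be technical.

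Each beta 2 integrin is a pair of 1 alpha chain and CD18, and an alpha chain reaches the cell surface only when paired. LFA-1 (CD11a with CD18) binds ICAM proteins and holds leukocytes to endothelium and to each other, Mac-1 (CD11b with CD18) is the complement receptor that takes up iC3b-coated particles and binds fibrinogen, and CD11c and CD11d form pairs with overlapping ligands on macrophages and dendritic cells. Circulating integrins are folded and inactive until talin and Kindlin-3, the product of Fermt3, bind the tail of the beta chain. Macrophages of the arterial wall take up oxLDL and become lipid-laden foam cells.

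Levels are given as CPM, the authors' expected read counts scaled by library size and a normalisation factor to a common size. Library totals ran between 11281692 and 24273551 expected counts. Among the subunit genes other than Itgad, the fewest reads behind a level were the 120 of Itgax in untreated wild-type cells. Some levels of other genes given here rest on fewer reads. Fermt3 was measured at 146 and 153 CPM in mutant cells with oxLDL, 239 and 248 CPM in untreated mutant cells, 188 CPM in wild-type cells with oxLDL and 404 CPM in untreated wild-type cells. A level of Fermt3 RNA does not check a mutation whose kind the labels do not give. Of the 10 listed macrophage markers, 9 were measured and none was at 0 in any library. Their summed level was 13622 to 18741 CPM in mutant cells with oxLDL, 19023 to 25269 CPM in untreated mutant cells, 9013 CPM in wild-type cells with oxLDL and 12570 CPM in untreated wild-type cells. Lyz2 made up most of that sum. The other markers did not move alike with oxLDL: Aif1 was at 11.8 and 11.5 CPM in mutant cells with oxLDL, 179.6 and 210.0 CPM in untreated mutant cells, 14.3 CPM in wild-type cells with oxLDL and 407 CPM in untreated wild-type cells. Cd68 was at 2146 and 1889 CPM, 1327 and 961 CPM, 1804 CPM, and 859 CPM in the same order of groups. Pancreatic transcripts, which macrophages are not known to make, summed to 163 and 129 CPM in mutant cells with oxLDL and 219 CPM in untreated wild-type cells, against at most 0.0704 CPM in the other libraries, and their part in the results was not tested. In bulk RNA, fewer cells of a type and less RNA per cell cannot be told apart.

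The Itgam and Itgax promoters are printed because the genes are neighbours on chromosome 7 and yet did not move alike. The sequence of each is from RefSeq on mouse build GRCm38.p6, upstream of the listed gene start and on the plus strand. Capitals mark matches on either strand to GAGGAA (core of the PU.1 site), GGGCGG (Sp1 box), TGANTCA (AP-1 site) or TGTGGT (Runx core). The Itgam window covers chr7:128062390-128062639 and the Itgax window chr7:128129300-128129525, the second shorter because the RefSeq gene record begins there.
Itgam: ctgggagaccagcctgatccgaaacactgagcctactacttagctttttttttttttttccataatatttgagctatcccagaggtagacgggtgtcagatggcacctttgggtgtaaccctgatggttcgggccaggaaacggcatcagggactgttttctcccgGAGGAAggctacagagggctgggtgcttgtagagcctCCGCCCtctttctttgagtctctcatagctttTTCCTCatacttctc
Itgax: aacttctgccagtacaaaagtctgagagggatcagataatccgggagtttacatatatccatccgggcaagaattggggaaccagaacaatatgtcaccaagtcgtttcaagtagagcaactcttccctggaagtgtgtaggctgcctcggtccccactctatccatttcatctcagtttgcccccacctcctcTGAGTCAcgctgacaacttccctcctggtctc
The Itgam window held GAGGAA at positions -84 and -15 and GGGCGG at -47, counted back from the gene start listed in the promoter table. The Itgax window held TGANTCA at -56, counted in the same way from a listed start that lies downstream of the window's end, and none of the other motifs. Among 32851 promoters with a window of the same length, 23.3% held GAGGAA, 32.7% held GGGCGG, 6.75% held TGANTCA and 14.05% held TGTGGT at the Itgam length. At the Itgax length the shares were 21.0%, 29.3%, 6.26% and 13.0% in the same order of motifs. A match is a description of letters and not evidence of binding. The promoter table holds neither of the other alpha chain genes nor Itgb2.

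Treatment with oxLDL was set against no treatment over all 6 libraries with genotype as a term in the model. Itgal had 38.1 and 25.9 CPM in mutant cells with oxLDL, 474 and 820.2 CPM in untreated mutant cells, 36.5 CPM in wild-type cells with oxLDL and 1523 CPM in untreated wild-type cells. The 3 oxLDL libraries lay far below the 3 untreated libraries and the groups did not overlap. Itgal, the alpha chain of LFA-1, fell 25.7-fold, a log2 fold change of -4.68 ± 0.35 (SE, edgeR quasi-likelihood adjusted p = 0.000237). Of the 12689 genes tested, 123 had a lower log2 fold change.

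Itgam had 409.9 and 224 CPM in mutant cells with oxLDL, 1103 and 1097 CPM in untreated mutant cells, 461 CPM in wild-type cells with oxLDL and 2569 CPM in untreated wild-type cells. Again every oxLDL library was below every untreated library. Itgam, the Mac-1 alpha chain, fell 4.06-fold (log2 fold change -2.02 ± 0.26, edgeR adjusted p = 0.00162). Of its 75-base stretches, 91.1% also occur in the gene model Gm49368, which has no row in the table. Reads from that model could therefore have been counted as Itgam, so the Itgam counts are uncertain.

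Itgb2, the beta chain all of these alpha chains need, moved far less. Its level was 657 and 660.2 CPM in mutant cells with oxLDL, 769 and 872 CPM in untreated mutant cells, 884 CPM in wild-type cells with oxLDL and 1159 CPM in untreated wild-type cells. The oxLDL and untreated ranges overlapped between genotypes, while within each genotype the oxLDL libraries were the lower. The change was 1.27-fold downwards (log2 fold change -0.34 ± 0.10, edgeR adjusted p = 0.0336), and the call was lost when any library but the first untreated mutant one was left out, at adjusted p up to 0.125.

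Itgax and Itgad passed in neither direction. Itgax, the CD11c chain, had 44.7 and 58.9 CPM in mutant cells with oxLDL, 42.2 and 46.3 CPM in untreated mutant cells, 13.7 CPM in wild-type cells with oxLDL and 6.14 CPM in untreated wild-type cells. The oxLDL value was the higher in wild type, the oxLDL and untreated values overlapped in the mutant, and the log2 fold change of 0.49 ± 0.21 did not pass (edgeR adjusted p = 0.106). Without the first mutant oxLDL library it was 0.70 with an adjusted p of 0.0388. With no filter on low counts it was 0.49 with an edgeR adjusted p of 0.0483, which passed as higher. Itgad was between 1.13 and 1.31 CPM in the 4 mutant libraries and at 0 in both wild-type libraries, and its oxLDL comparison gave an adjusted p of 0.947.

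In all, 3 of the 5 genes passed as lower and none as higher, where 40.4% of all tested genes passed in either direction, 19.5% as higher and 20.9% as lower. In the mutant libraries alone, Itgal and Itgam passed as lower, with 35.8% of tested genes passing in that comparison. There Itgal fell 20.2-fold (log2 fold change -4.34 ± 0.34, edgeR adjusted p = 0.000638) and Itgam 3.47-fold (-1.79 ± 0.28, adjusted p = 0.00566). Itgb2 in the mutant had a log2 fold change of -0.32 ± 0.12 and did not pass (adjusted p = 0.0902).

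Wild type has 1 library per treatment, so it is described by size, as a log2 ratio of at least 1 either way from a level of at least 5 CPM in one of them. Itgal had a log2 ratio of -5.38, Itgam of -2.48 and Itgax of 1.14, while Itgb2 had -0.39. By that rule 3 of the 4 genes listed there changed at least 2-fold, against 19.6% of genes of such a level, 7.93% of them higher and 11.7% lower. The difference of the oxLDL response between genotypes was 1.05 ± 0.52 for Itgal and 0.68 ± 0.48 for Itgam (log2, mutant minus wild type), neither of which passed (edgeR adjusted p = 0.522 and 0.644). With the filter on low counts, none of the 5 genes passed that test in edgeR, nor in DESeq2. In edgeR 0.481% of all genes passed it (0.189% higher, 0.292% lower). When that filter was dropped, Itgax passed in edgeR. Itgax had a difference of -0.93 ± 0.30 (edgeR adjusted p = 0.342) and was the 1 gene of the 5 under 0.05 before adjustment.

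**Figure D1:**
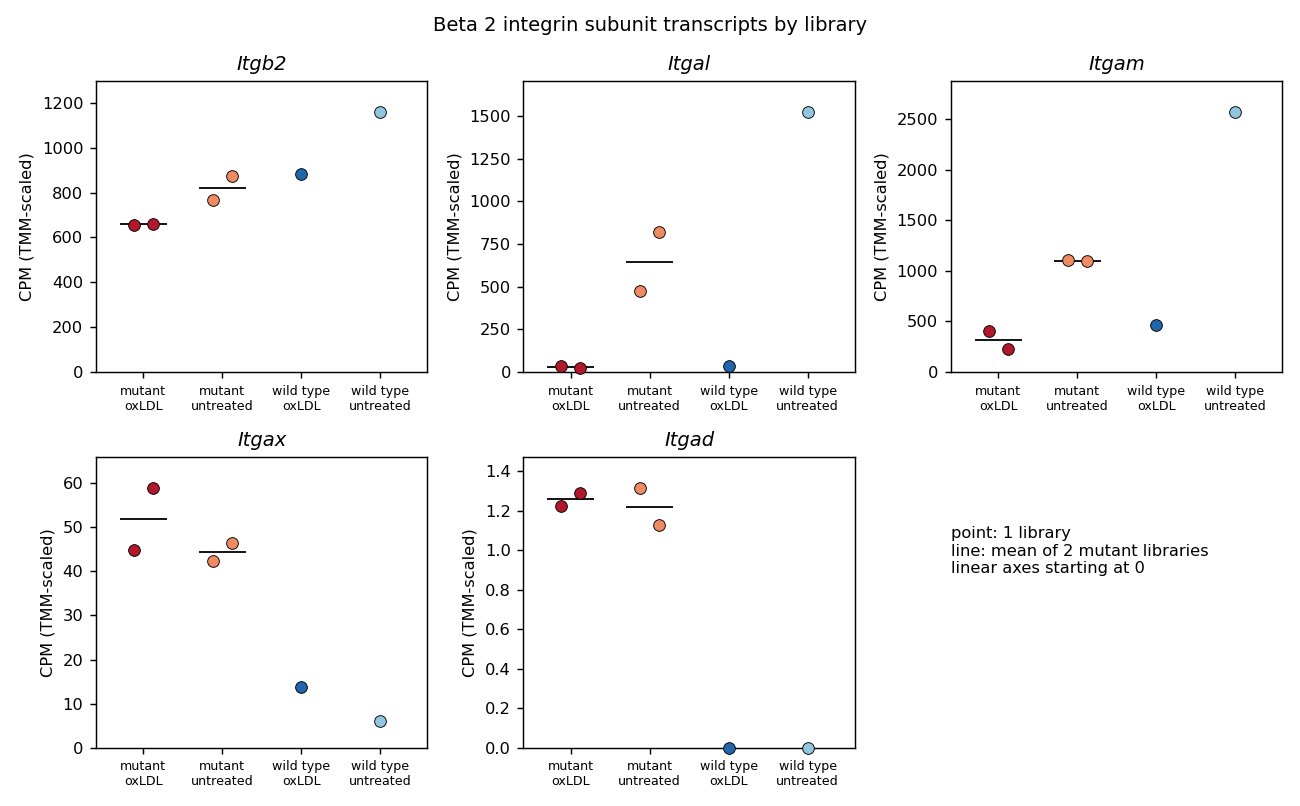
Level of the 5 subunit genes in each library (CPM on linear axes from 0, 1 point per library, lines at the means of the 2 mutant libraries of a group). Itgal and Itgam lie lower in every oxLDL library than in every untreated one, Itgax lies between 42.2 and 58.9 CPM in mutant cells against 13.7 and 6.14 CPM in wild type, and Itgad is at 0 in both wild-type libraries.

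**Figure D2:**
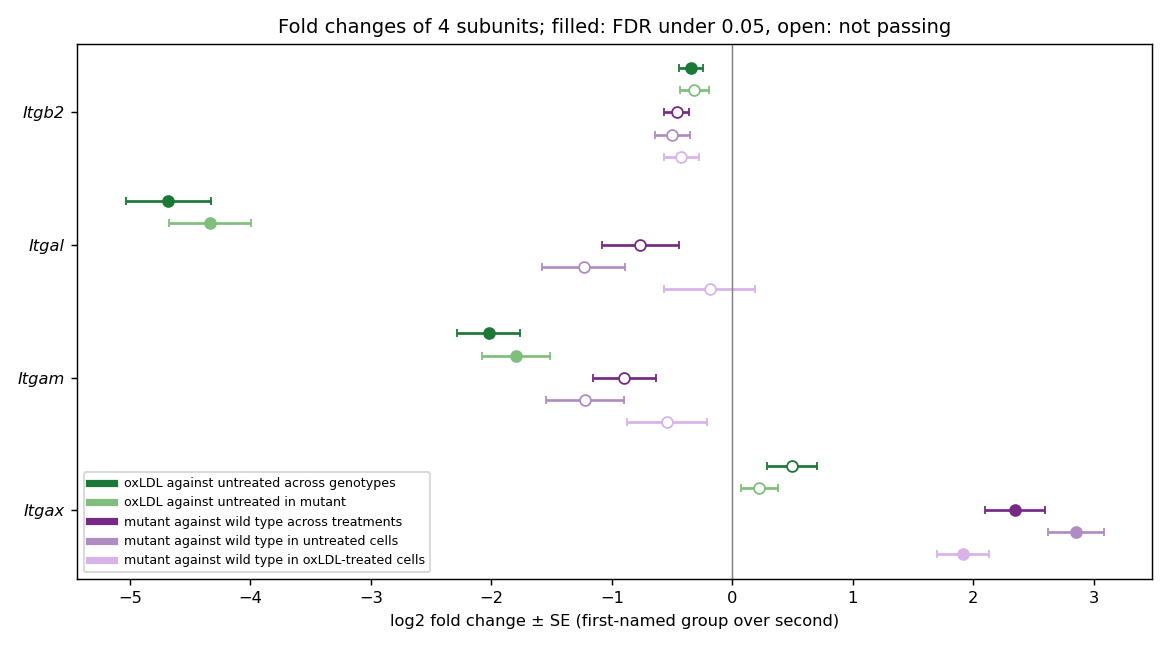
Log2 fold changes of Itgb2, Itgal, Itgam and Itgax in 5 comparisons (horizontal axis, first-named group over second), with approximate standard errors as bars and filled points for an adjusted p under 0.05. The oxLDL change of Itgal reaches -4.68 and that of Itgam -2.02, while that of Itgb2 is -0.34, and Itgax is at 2.34 for mutant against wild type.

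Some markers of other cell types moved with the treatment too. Monocyte markers summed to 2.73 and 1.54 CPM in mutant cells with oxLDL, 9.29 and 10.5 CPM in untreated mutant cells, 3.07 CPM in wild-type cells with oxLDL and 8.70 CPM in untreated wild-type cells, with Plac8 at 0 in 5 of the 6 libraries. Neutrophil markers, from cells rich in Mac-1, summed to 16.1 and 10.6 CPM, 19.4 and 17.7 CPM, 10.3 CPM and 53.6 CPM in that order of groups. In the untreated wild-type library Ngp was the highest of them, and in the other libraries between 4 and 7 of 10 were at 0. Kit, the highest of 4 mast cell markers, was at 70.0 and 24.2 CPM in mutant cells with oxLDL, 4.91 and 2.60 CPM in untreated mutant cells, 6.60 CPM in wild-type cells with oxLDL and 0.205 CPM in untreated wild-type cells. Kit made up nearly all of the mast cell sum, and 2 or 3 of the 4 markers were at 0 in each library. Markers of T, B and NK cells summed to at most 10.03 CPM and those of fibroblasts to at most 2.02 CPM in any library. The part of these cell types in the fall of Itgal and Itgam was not tested.

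Mutant cells were set against wild-type cells over both treatments, with treatment as a term. Itgax measured 42.2 to 58.9 CPM in the 4 mutant libraries and 13.7 and 6.14 CPM in the 2 wild-type libraries, so the genotypes did not overlap. It was 5.08-fold higher in mutant cells (log2 fold change 2.34 ± 0.25, edgeR adjusted p = 0.0154), and 251 of the 12689 genes had a higher value. The call was lost without either untreated mutant library, at adjusted p = 0.0624 and 0.0910. In untreated cells the mutant level was 7.20-fold that of wild type (2.85 ± 0.23, adjusted p = 0.00775), and in oxLDL-treated cells 3.78-fold (1.92 ± 0.22, adjusted p = 0.0372). The call in oxLDL-treated cells was lost without the same libraries, at adjusted p = 0.0827 and 0.112. Each of these comparisons has a single wild-type library, which is assumed to vary like the mutant pairs.

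Itgad passed as higher in the mutant across treatments (edgeR adjusted p = 0.0277). It passed the filter on low counts through the mutant libraries alone, so it had to differ and the call is not read as support. The call was lost without the first mutant oxLDL library, without either untreated mutant library and without the untreated wild-type library, at adjusted p up to 0.122. In untreated cells Itgad passed (adjusted p = 0.0323) and was lost without either untreated mutant library, and in oxLDL-treated cells it did not pass (adjusted p = 0.0944) except without the second mutant oxLDL library (adjusted p = 0.0434). Itgad had 30.2, 26.04, 14.6 and 15.7 expected counts in the mutant oxLDL and untreated libraries and 0 in both wild-type libraries. Against a floor of 3 counts over the wild-type libraries the pooled mutant level of 1.24 CPM was at least 14.5-fold higher. RSEM gave Itgad a fractional count in all 4 mutant libraries, and the sum of Itgax and Itgad was whole within 0.01 in 3 of them. 6.17% of the 75-base stretches of Itgad also occur in Itgax, so reads of the 2 genes can be exchanged. In the mutant libraries Itgad took 2.68%, 2.15%, 2.93% and 2.33% of the reads of the pair (95% Wilson intervals of 1.87 to 3.77%, 1.47 to 3.12%, 1.84 to 4.92% and 1.47 to 3.82%). In wild type it took 0 of 214 reads with oxLDL, where the 95% Wilson interval reaches 1.76%, and 0 of 120 untreated, where it reaches 3.10%. These limits cover counting error only, and a low Itgad signal cannot be told apart from misassigned Itgax reads.

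The other 3 genes did not pass across treatments. Itgb2 had a log2 fold change of -0.46 ± 0.10 (edgeR adjusted p = 0.0617), with all 4 mutant libraries below both wild-type libraries, at 657 to 872 against 884 and 1159 CPM. Itgam had -0.90 ± 0.26 (adjusted p = 0.103) and Itgal -0.76 ± 0.32 (adjusted p = 0.203), and for these 2 the genotype ranges overlapped across treatments. In untreated cells alone the mutant values of both were the lower, with Itgal at -1.23 ± 0.34 (adjusted p = 0.0841) and Itgam at -1.22 ± 0.33 (adjusted p = 0.0757). Both passed there when either mutant oxLDL library was left out, at adjusted p = 0.0177 and 0.0137 for Itgal and 0.00241 and 0.00200 for Itgam. Without the first mutant oxLDL library Itgam also passed across treatments (-1.15, adjusted p = 0.0232) and in oxLDL-treated cells (-1.04, adjusted p = 0.0462). Both Itgb2 and Itgam passed across treatments with DESeq2 (adjusted p = 7.81e-05 and 0.0114) and without the filter (adjusted p = 0.0304 and 0.0157).

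Across treatments 2 of the 5 genes, Itgax and Itgad, passed as higher and none as lower, where 4.08% of all tested genes passed either way, 2.55% as higher and 1.53% as lower. In untreated cells Itgax and Itgad passed as higher, with 7.34% of all genes passing, 4.25% as higher and 3.09% as lower. Itgad, which had to differ once it passed the filter, is not read as support in either count, which leaves Itgax. In oxLDL-treated cells Itgax passed as higher, with 0.489% of all genes passing, 0.307% as higher and 0.181% as lower. Dendritic cell markers, of which Itgax is commonly counted one, summed to 1.79 and 2.73 CPM in mutant cells with oxLDL, 19.9 and 26.05 CPM in untreated mutant cells, 2.11 CPM in wild-type cells with oxLDL and 10.3 CPM in untreated wild-type cells. Cd207 led the untreated mutant sums at 15.4 and 19.7 CPM, against 1.48 CPM in untreated wild-type cells, and Flt3 was at 0 in 5 of the 6 libraries. Xcr1 and Batf3 were the lower in untreated mutant cells. Xcr1 was at 3.15 and 4.79 CPM there against 5.22 CPM in untreated wild-type cells, and Batf3 at 0.789 and 1.13 against 2.87 CPM. The remaining markers were at 0.438 CPM or less in the untreated libraries. Their part in the Itgax difference was not tested.

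Because the alpha chains share 1 beta chain, their reads were also set against Itgb2 reads of the same library, with a pseudocount of 0.5 for the log2 ratio. Itgal reached 5.79 and 3.92 reads per 100 Itgb2 reads in mutant cells with oxLDL, 61.6 and 94.1 in untreated mutant cells, 4.13 in wild-type cells with oxLDL and 131 in untreated wild-type cells. Itgam reached 62.4 and 33.9, 143 and 126, 52.1, and 222 in the same order of groups. Itgax reached 6.81 and 8.92, 5.49 and 5.31, 1.55, and 0.530. These ratios are not corrected for gene length.

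The oxLDL and untreated ratios of Itgal and Itgam did not overlap, and those of Itgax did. The mean log2 ratio differed by -4.33 for Itgal and -1.73 for Itgam between oxLDL and untreated, each with an exact permutation p of 0.1 and 0.267 after adjustment over the 6 ratio tests. With 3 libraries against 3 the smallest p possible is 0.1. Itgax differed by 0.87 (exact p = 0.5), and by -0.25 without the untreated wild-type library and 1.64 without the wild-type oxLDL library. This test had no term for genotype, and a library left out changed the balance of genotypes. Within genotypes the Itgax ratio was higher with oxLDL, by 0.53 in the mutant and 1.54 in wild type, values without a test. For mutant against wild type Itgax differed by 2.84 without overlap (exact p = 0.133, adjusted 0.267), and 0.133 is the smallest p that 4 against 2 allows. Itgal differed by -0.29 (exact p = 0.8) and Itgam by -0.45 (exact p = 0.667) between genotypes. Within untreated cells the mutant ratio differed by -0.79 for Itgal and -0.72 for Itgam, and within oxLDL-treated cells by 0.21 and -0.18, values without a test. The test between genotypes had no term for treatment, so a library left out also changed the balance of treatments. The shifts that followed therefore do not measure the stability of a genotype difference. Without the wild-type oxLDL library the differences were -2.79 for Itgal and -1.50 for Itgam, and without the untreated wild-type library 2.20 and 0.59. Itgal was also at 0.28 and 0.47 without the first and the second mutant oxLDL library. Within untreated cells the Itgax ratio was 10.2-fold higher in the mutant, and within oxLDL-treated cells 5.02-fold, values without a test.

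**Figure D3:**
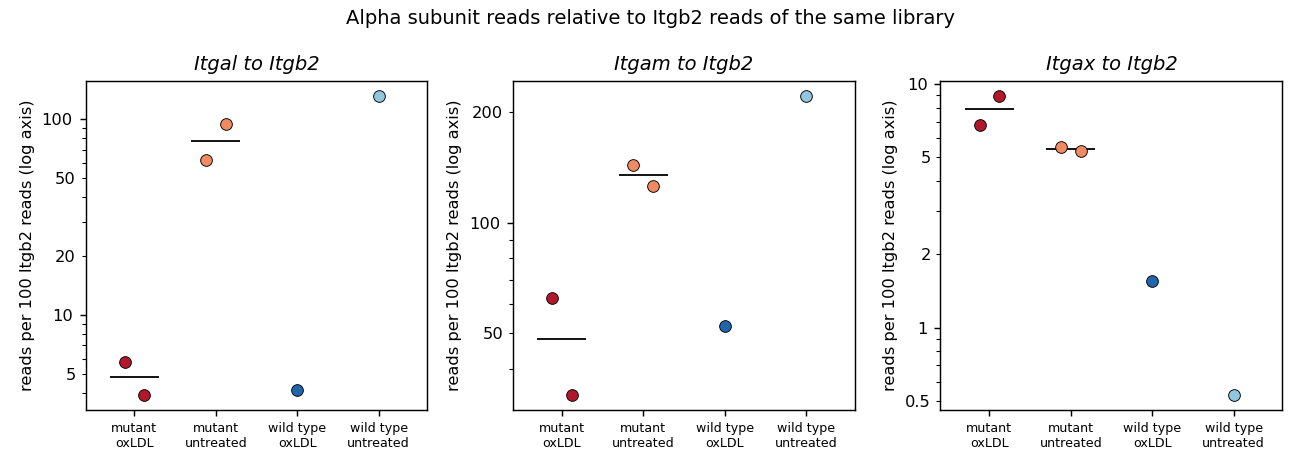
Reads of Itgal, Itgam and Itgax per 100 Itgb2 reads of the same library (log axis, 1 point per library, lines at the means of the 2 mutant libraries of a group). Itgal stands at 3.92 to 5.79 in the oxLDL libraries against 61.6 to 131 in the untreated libraries, and Itgax at 5.31 to 8.92 in the mutant against 1.55 and 0.530 in wild type.

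To compare levels between genes, CPM were divided by coding length, which is 2310 bases for Itgb2, 3603 for Itgal, 3501 for Itgam, 3507 for Itgax and 3606 for Itgad. On this scale Itgb2 was the highest of the 5 genes in every library except untreated wild-type cells, where Itgam stood at 734 CPM per coding kilobase against 502 for Itgb2. By transcript length Itgam also ranked above Itgb2 in both untreated mutant libraries. The summed alpha level was 0.495 and 0.309 of the Itgb2 level in mutant cells with oxLDL, 1.38 and 1.47 in untreated mutant cells, 0.381 in wild-type cells with oxLDL and 2.31 in untreated wild-type cells. The alpha chains were thus together below the beta chain in all 3 oxLDL libraries and above it in all 3 untreated ones.

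Itgam made up 83.2% and 72.5% of the summed alpha level in mutant cells with oxLDL, 68.6% and 56.5% in untreated mutant cells, 90.4% in wild-type cells with oxLDL and 63.4% in untreated wild-type cells. Itgal made up 7.51% and 8.13%, 28.7% and 41.1%, 6.95%, and 36.5% in that order. Itgax made up 9.06% and 19.0%, 2.62% and 2.38%, 2.68%, and 0.151%. The Itgal share was the lower and the Itgam share the higher in every oxLDL library.

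**Figure D4:**
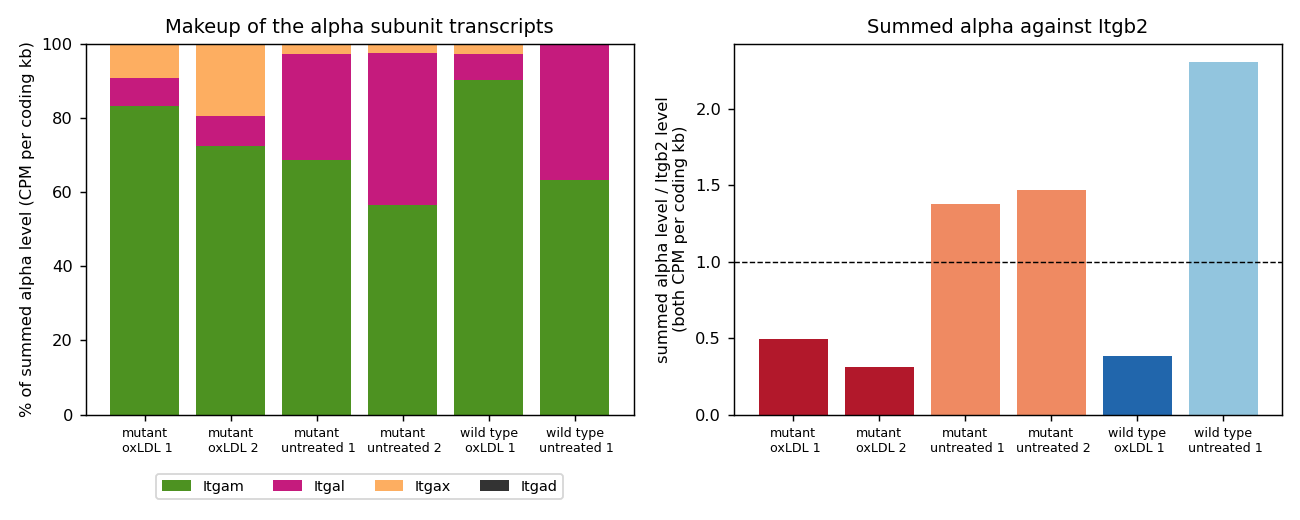
Left, share of each alpha gene in the summed alpha level (CPM per coding kilobase) of each library; right, that sum divided by the Itgb2 level on the same scale, with a dashed line at equality. The sum lies at 0.309 to 0.495 of Itgb2 in the oxLDL libraries and at 1.38 to 2.31 in the untreated libraries.

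The genes that switch beta 2 integrins on, hold them off, bind them, signal from them or partner them were listed with the members' earlier results known, so their counts describe and are not tested as lists. A gene is said to have passed at an edgeR adjusted p under 0.05, and folds are for oxLDL across genotypes unless stated. The median log2 fold change of all tested genes was 0.02 for oxLDL across genotypes, and 20.9% of them passed as lower and 19.5% as higher.

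Of 13 genes that activate integrins, 7 passed as lower with oxLDL and none as higher, with a median of -0.50, against 20.9% of all genes as lower and 19.5% as higher. Fyb (ADAP, an adaptor that links receptors to Rap1 signalling) had 544 and 544 CPM in mutant cells with oxLDL, 2316 and 2157 CPM in untreated mutant cells, 936 CPM in wild-type cells with oxLDL and 2813 CPM in untreated wild-type cells, a fall of 3.70-fold. Apbb1ip (RIAM, which links Rap1 to talin) fell 3.28-fold, the GTPase Rap1b 2.64-fold and Fermt3 1.78-fold. Between genotypes Apbb1ip and Rap1b passed as lower in the mutant, at log2 fold changes of -0.86 ± 0.14 and -0.65 ± 0.12 (edgeR adjusted p = 0.0337 and 0.0448). In untreated cells 4 of the 13 passed as lower in the mutant, where 3.09% of all genes did, among them Fermt3 at -0.73 ± 0.11 (adjusted p = 0.0252).

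Of 6 genes that restrain integrins, 3 passed as lower with oxLDL and 1 as higher, against 20.9% and 19.5% of all genes. Rap1gap2, which switches Rap1 off, was at 0.978 and 1.44 CPM in mutant cells with oxLDL, 9.55 and 17.1 CPM in untreated mutant cells, 1.28 CPM in wild-type cells with oxLDL and 19.0 CPM in untreated wild-type cells. It fell 12.2-fold, and Flna (filamin A, which competes for integrin tails) and Sipa1 fell 1.83-fold each. Rasa3, another Rap1 inhibitor, was 1.73-fold higher. None passed between genotypes across treatments, and 1 passed as lower in untreated mutant cells.

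Of 15 listed ligands, 6 were tested, and 3 of these passed as lower with oxLDL, against 20.9% of all genes. Icam1, an LFA-1 and Mac-1 ligand, had 41.2 and 30.8 CPM in mutant cells with oxLDL, 175 and 232 CPM in untreated mutant cells, 17.6 CPM in wild-type cells with oxLDL and 215 CPM in untreated wild-type cells, a fall of 7.21-fold. F11r (JAM-A) fell 6.46-fold and C3, whose fragment iC3b Mac-1 binds, 3.70-fold. Ager had under 1 CPM and did not pass.

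Of 17 genes that carry signals from the engaged integrin, 10 passed as lower with oxLDL and 2 as higher, against 20.9% and 19.5% of all genes. Among those lower, the Src-family kinase Lyn fell 3.72-fold, the exchange factor Vav1 2.88-fold and the adaptor Lcp2 (SLP-76) 2.80-fold. Src, the founding member of that family, was higher in the mutant across treatments, at 30.2 and 22.9 CPM in mutant cells with oxLDL and 24.5 and 21.0 CPM in untreated mutant cells, against 13.6 CPM and 6.60 CPM in wild-type cells with and without oxLDL. Its log2 fold change was 1.35 ± 0.23 (edgeR adjusted p = 0.0375), and no gene of the list passed as lower across treatments. In untreated cells 8 of the 17 passed as lower in the mutant and 1 as higher, where 3.09% of all genes passed as lower and 4.25% as higher.

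Of 7 surface partners, 3 passed as lower with oxLDL and 2 as higher, against 20.9% and 19.5% of all genes. Tlr2 fell 6.59-fold, Cd14 5.07-fold and Cd47 1.97-fold with oxLDL, and Fcgr3 (an IgG receptor) rose 2.93-fold. Fcgr2b was higher in the mutant by 0.57 ± 0.09 on the log2 scale (edgeR adjusted p = 0.0333). Of 10 transcription factors reported to bind integrin promoters, 4 passed as lower and 2 as higher with oxLDL, against 20.9% and 19.5% of all genes. Spi1 (PU.1) had 173 and 195 CPM in mutant cells with oxLDL, 317 and 349 CPM in untreated mutant cells, 209 CPM in wild-type cells with oxLDL and 535 CPM in untreated wild-type cells, a fall of 2.03-fold, and Ets1 fell 5.23-fold. Cebpa rose 2.70-fold.

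Of 21 other integrin subunits, 14 were tested for oxLDL, and 7 passed as lower and 1 as higher, against 20.9% and 19.5% of all genes. Together with the 5 members, 19 subunits were tested. Itgal had the lowest log2 fold change among them and Itgam the fourth lowest, with Itga9 (-3.39 ± 0.16) and Itga8 (-3.30 ± 0.41) between them, and Itgb3, the beta chain of the vitronectin receptor, had the highest. Itgb2, at -0.34, stood next to Itgb5 in that order, and Itgb1, at -0.09 ± 0.10, did not pass.

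**Figure D5:**
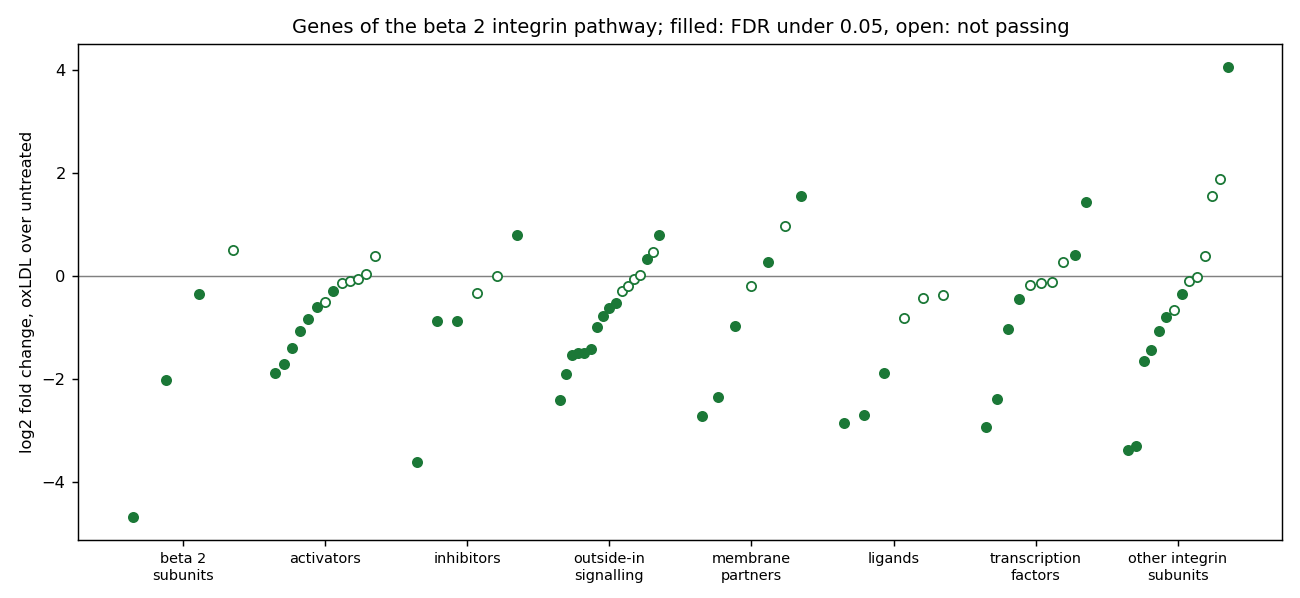
Log2 fold changes for oxLDL against untreated across genotypes of the subunit genes other than Itgad and of the tested pathway genes, grouped by role and ordered within each group, with filled points for an adjusted p under 0.05. Of the activation genes 7 of 13 passed as lower and none as higher, and of the outside-in signalling genes 10 of 17 passed as lower.

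Over the 6 libraries, the log2 CPM of each subunit gene was set against those of all tested genes, as a description with no test, since the points share their libraries and depths. Itgal was most like Spn, Morc4 and Actb, with r from 0.998 to 0.999. Itgam was most like Batf2, Traf3ip3 and Slc25a5 (r from 0.997 to 0.999), and Itgax most like Ptdss1, Plekhf1 and Lrrc9 (r from 0.991 to 0.996). Itgb2 was most like Tbc1d5, Mfng and Ptp4a2 (r from 0.994 to 0.999), and Itgad most like Gm13242, Plag1 and BC002163 (r from 0.994 to 0.995). Spn, the sialophorin CD43, had 22.6 and 14.6 CPM in mutant cells with oxLDL, 215 and 377 CPM in untreated mutant cells, 17.6 CPM in wild-type cells with oxLDL and 635 CPM in untreated wild-type cells.

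Of 18 genes next to the subunit genes in the RefSeq order, 4 passed as higher and 4 as lower with oxLDL, against 19.5% and 20.9% of all genes. None passed between genotypes across treatments. Around the Itgam, Itgax and Itgad locus, Pycard and Armc5 passed as lower with oxLDL, and Kat8 and Cox6a2 as higher. Pycard, the inflammasome adaptor ASC, fell 2.70-fold. Itgal, Itgam, Itgax and Itgad lie on chromosome 7 and Itgb2 on chromosome 10.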

How the data were processed

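Polyadenylated RNA of mouse macrophages was sequenced in 6 libraries, as 150-base paired ends from 250 ng of RNA each, per the labels' protocols. The authors aligned with Bowtie2 2.1.0 and deposited RSEM 1.2.15 expected counts per gene, per the submitters' processing notes. A second deposited table holds the authors' edgeR-scaled signal. The notes name hg19, while the symbols are mouse; the mouse build is therefore not given in the sources used here. Within each library 100% of nonzero signal values were whole reads within a relative tolerance of 1e-06, and at least 99.89% equalled the rounded counts; the same test on those reads called 5127 genes for oxLDL, against 5125.

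Expected counts were rounded. filterByExpr kept 12689 of 17143 genes with counts, and edgeR 4.0.16 (R 4.3.3) tested these by quasi-likelihood, with TMM factors, Benjamini-Hochberg adjustment and a threshold of 0.05. Comparisons across treatments or genotypes came from a model with both terms and no interaction, the others from a model of 4 group means. SE is |log2 fold change| over the root of F. A log2 ratio of 2 single libraries used a prior count of 2. Ratios to Itgb2 used exact two-sided permutation tests, with no term for genotype in the oxLDL tests or for treatment in the genotype tests. Coding lengths and shared stretches came from GENCODE transcripts, neighbours from RefSeq. Named genes were the 5 subunits, Fermt3, up to 4 list members with the smallest p for oxLDL and up to 2 for genotype, the 3 most similar genes and the neighbours. Some genes named by this rule are left out of the text. The members, lists and rule were chosen with earlier results of these data known. Another scaling, no filter, DESeq2 1.42.0, limma 3.58.1 on log2(signal + 1), a replicate block and leaving out each library were tried. The scripts were tested on simulated data.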

Additional observations from a re-analysis of the deposited data

How the results depend on the processing

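Itgal and Itgam passed as lower with oxLDL, across genotypes and in the mutant, under every alternative for which they were reported. Itgax passed as higher with oxLDL across genotypes when no filter on low counts was used (edgeR adjusted p = 0.0483). Leaving out each library in turn gave 2 to 3 members called for oxLDL across genotypes, 0 to 2 for mutant against wild type across treatments (2 in the main analysis), 1 to 4 in untreated cells (2) and 0 to 2 in oxLDL-treated cells (1). Without a filter on low counts 4 members were called across treatments, 5 in untreated cells, 2 in oxLDL-treated cells and 1 for the difference of the oxLDL response between genotypes. DESeq2 called 4 across treatments and limma 1 in untreated cells. With the replicate number as a block, 1 was called across treatments (Itgad had an adjusted p of 0.0514). The difference of replicate 1 from replicate 2 in mutant cells with oxLDL correlated at 0.204 with that in untreated mutant cells over 12689 genes. With 2 pairs, and no label of a shared animal or day, this does not settle whether the numbers pair the samples. The Itgax ratio to Itgb2 between genotypes ranged from 2.06 to 3.61 with a library left out. The ratio tests had no term for the other factor, so a library left out also shifted the balance of treatments or genotypes. Also with a library left out, 3 other ratios to Itgb2 turned round, none of which passed: Itgax with oxLDL (-0.25 to 1.64), and Itgal (-2.79 to 2.20) and Itgam (-1.50 to 0.59) between genotypes. So did 4 small fold changes that did not pass: Itgad with oxLDL across genotypes (-0.058 to 0.15) and in the mutant (-0.060 to 0.16), Itgal between genotypes in oxLDL-treated cells (-0.50 to 0.067), and Itgb2 for the difference of the response (-0.015 to 0.16). Over all genes, 518 were called across treatments, against 1387 without the filter, 1513 by DESeq2, 324 with the block and 8 to 911 with a library left out. In untreated cells 931 were called, against 2435 without the filter, 1915 with the block and 113 to 2039 with a library left out. In oxLDL-treated cells 62 were called, against 974, 473 and 3 to 659 in the same order and 391 by DESeq2. For the difference of the response 61 were called, against 546, 165 and 16 to 278, and 221 by DESeq2. The causes were not tested. Recovered whole reads and summed Itgax and Itgad counts were added after seeing the data. The recovered reads kept every call of the members. The summed counts kept every call of Itgax, the only member reported there, since Itgad no longer stood alone. Each wild-type group has 1 library, which limits the genotype comparisons.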
